A study of Mus musculus with 12 samples.

Results

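The 9 genes described here encode the Fos and Jun proteins of the transcription factor AP-1, the stress factor ATF3 and the small Maf protein MAFF. They were Fos, Fosb, Fosl1, Fosl2, Jun, Junb, Jund, Atf3 and Maff, and all were chosen by name, with earlier results of these data known. The chosen genes had 13 of the 45101 probe sets of the deposited table and made up 9 of the 18193 genes tested. The study measured RNA on 12 mouse Affymetrix MG430 2.0 arrays, 3 in each of 4 groups. Each probe set has a log2 level, so a difference of 1 in level is a doubling. STHdhQ111/Q111 (Q111) cells are striatal cells from knock-in mouse embryos whose huntingtin carries the expanded glutamine tract of Huntington's disease, and STHdhQ7/Q7 (Q7) cells are their counterpart from wild-type embryos. The 4 groups were Q111 cells after 6 h at 42 °C, untreated Q111 cells at 33 °C, Q7 cells after 6 h at 42 °C and untreated Q7 cells at 33 °C. Both lines grew in serum and G418 at 33 °C and were used only up to a set passage. Each genotype is represented by a single named line, so genotype and line cannot be told apart. As background, these lines were immortalised with a temperature-sensitive large T antigen, and its loss of activity and the heat itself cannot be told apart in groups that differ by temperature. The labels do not say that the 3 arrays of a group came from separate cultures, so p-values measure the spread between arrays, which may be technical.

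AP-1 is a dimer of a Jun protein with a Fos protein or with another Jun protein, held together by a leucine zipper, and it binds DNA through a basic region beside that zipper. Fos proteins pair mainly with Jun proteins, whereas ATF3 pairs with itself or with Jun proteins. The partners of small Maf proteins include Fos proteins and NRF2-related factors. Most of these genes are immediate early genes, which are transcribed within minutes of growth factors or stress through MAP kinases and serum response factor, and their transcripts are short-lived. In the striatum, Fos and Fosb are known as markers of neurons activated by dopamine and by drugs.

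Heat shock genes followed the labels. Hspa1a, the inducible HSP70 gene, averaged 12.43 in heat-shocked and 5.95 in untreated Q111 cells, and 11.45 in heat-shocked and 5.96 in untreated Q7 cells. Of 9 listed heat shock genes 7 rose in each line. Heat moved much of the transcriptome, with 48.1% of genes called in Q111 cells and 30.4% in Q7 cells by limma at an adjusted p under 0.05. The median gene level of an array was lower after heat shock by 0.73 in Q111 cells and by 0.35 in Q7 cells. Setting all array medians equal adds these amounts to each change below. Without it the median change over all genes was -0.02 in Q111 cells and 0.00 in Q7 cells. Counts of rises under equal medians are therefore raised for genes of any kind. Over all genes, the share of calls that were higher under that setting is given at the end. The difference between 3' and 5' actin probe sets, a sign of RNA quality, also moved with temperature. It was 1.25 ± 0.23 in heat-shocked and 0.72 ± 0.36 in untreated Q111 cells, and 1.48 ± 0.12 in heat-shocked and 0.54 ± 0.16 in untreated Q7 cells (SD, n = 3 each). Its part in the results was not tested beyond a fit that holds it as a covariate. Replicate 3 of heat-shocked Q111 cells stood apart most, with a mean correlation of 0.969 with its own group. Of the markers of striatal projection neurons 6 of 8 were above the background bound of 5.14, while Ppp1r1b and Drd2 were not. Also above it were 6 of 8 fibroblast markers, 7 of 8 neural progenitor markers and 13353 of the 18193 genes tested. Several marker lists moved with temperature, and some differed between the lines. Summed over the list, neuron markers ran from 52.3 to 53.6 in heat-shocked and from 43.7 to 47.8 in untreated Q111 cells, and overlapped in Q7 cells. Striatal projection neuron markers ran from 45.8 to 47.2 in heat-shocked and from 41.8 to 42.6 in untreated Q111 cells, astrocyte markers from 49.2 to 51.1 and from 45.1 to 47.8, and microglia and macrophage markers from 35.1 to 36.4 and from 32.5 to 33.0, each with overlap in Q7 cells. Endothelial markers were 26.2 to 26.8 in heat-shocked and 24.9 to 25.8 in untreated Q111 cells. In Q7 cells they were 25.78 to 27.25 after heat shock and 24.39 to 25.76 untreated. Only Kdr among the 6 endothelial markers was above the bound. Fibroblast markers ran from 67.9 to 70.9 in heat-shocked and from 75.9 to 76.3 in untreated Q111 cells, and from 62.4 to 62.6 in heat-shocked and from 66.5 to 68.9 in untreated Q7 cells. Neural progenitor markers summed to between 44.6 and 48.3 in Q111 cells, where the temperatures overlapped. In Q7 cells they ran from 61.8 to 63.1 after heat shock and from 64.0 to 64.9 untreated. Whether such markers play a part in the results below was not tested. In bulk RNA, fewer cells with a transcript and less of it in each cell cannot be told apart.

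Fos, Junb, Atf3 and Maff rose after heat shock in both lines. Atf3 rose 9.95-fold in Q111 cells and 5.17-fold in Q7 cells. Fos rose 5.27-fold in Q111 cells and 6.25-fold in Q7 cells. Maff rose 5.28-fold in Q111 cells but 1.62-fold in Q7 cells. It was the only one of the 9 genes whose change differed between the lines by the test as fitted here. Jun and Fosl1 also passed it with equal array medians. Jun passed it as well on its dimmer probe set (difference 1.52, limma adjusted p = 0.0347) and with the mean of its probe sets. Without replicate 2 of heat-shocked Q111 cells Jun was called too. With the fall of Jund, 5 of 9 genes were called in Q111 cells, where 20.0% of all genes were called higher and 28.2% lower. With the fall of Fosl1, 5 of 9 were called in Q7 cells, where 12.3% of all genes were called higher and 18.1% lower. Arrays did not overlap between temperatures for 6 of the 9 genes in Q111 cells, against 54.7% of all genes, and for 7 of the 9 in Q7 cells, against 48.8% of all genes. The median change of the 9 genes was 0.52 in Q111 cells and 0.02 in Q7 cells, and that of all genes was -0.02 and 0.00.

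**Figure D1:**
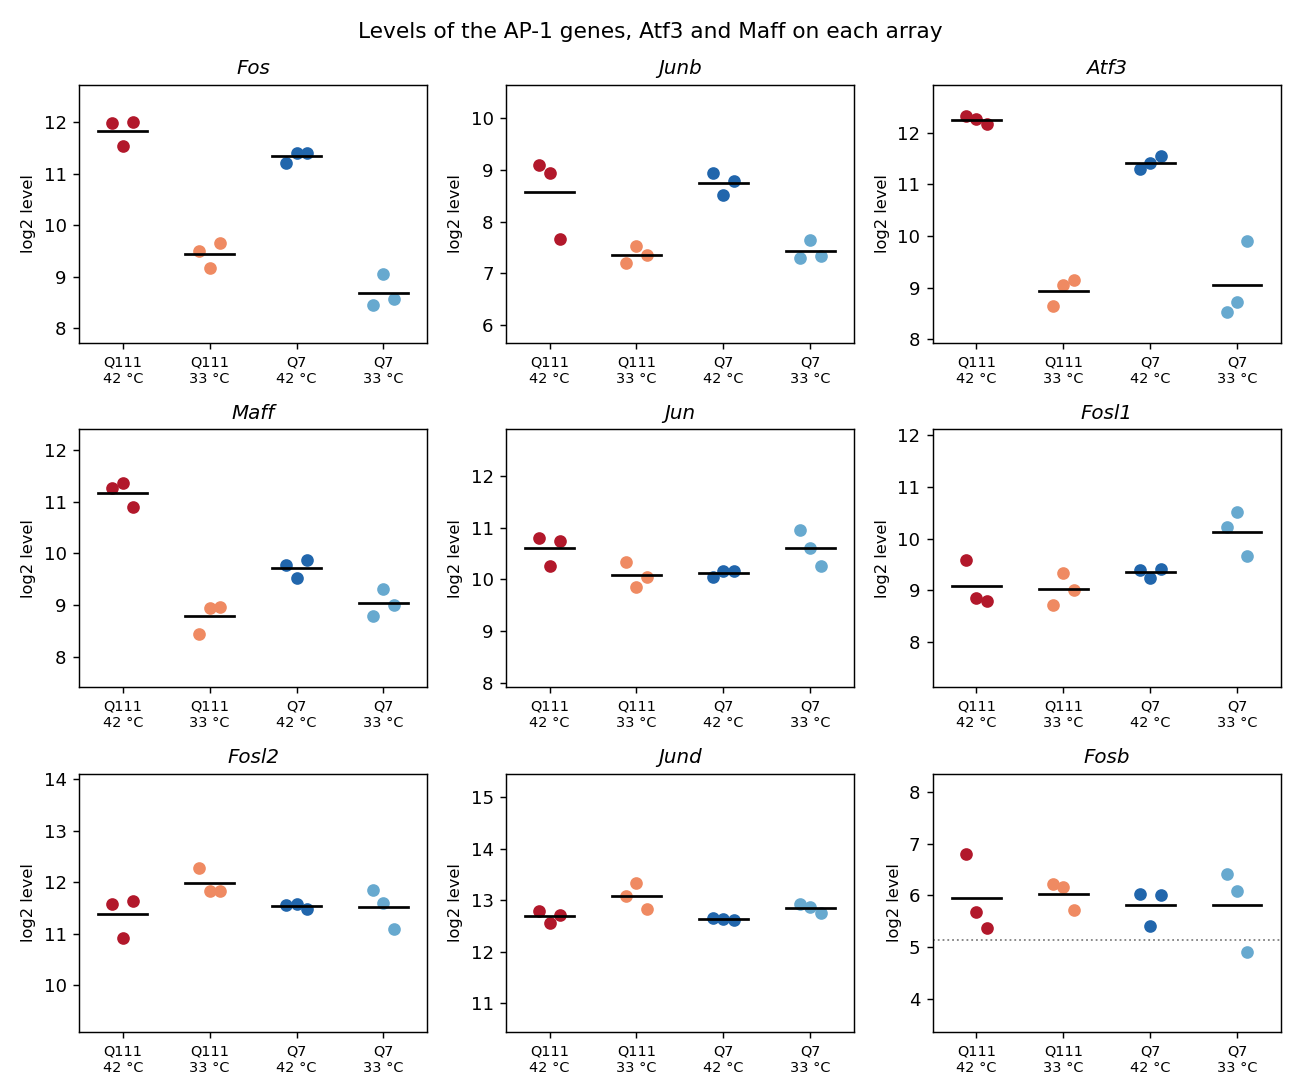
Log2 level (vertical axis, 5 units high in every panel) of each of the 9 genes on each of the 12 arrays, for Q111 cells at 42 °C and 33 °C and Q7 cells at 42 °C and 33 °C, with 1 point for each array and a line at the group mean; the dotted line at 5.14 is the background bound. Fos, Atf3 and Maff stood highest in heat-shocked Q111 cells, and the Fosb points overlapped in all groups.

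RefSeq promoters of the genes that rose together, and of Jun, are shown so that the searched letters found in Fos, Maff and Jun can be read beside Junb and Atf3, where none was found. The table of promoters held 8 of the 9 genes with 10 starts, in build GRCm38.p6. Each sequence below is the 250 bases before the start, written 5′ to 3′ on the strand of the gene, with capitals marking the searched letters that were found. The Fos promoter is chr12:85473640-85473889 on the plus strand, that of Junb chr8:84978749-84978998 on the minus strand and that of Atf3 chr1:191183334-191183583 on the minus strand. The second of 3 Maff starts is chr15:79347270-79347519 on the plus strand, and the Jun promoter is chr4:95052223-95052472 on the minus strand.
Fos: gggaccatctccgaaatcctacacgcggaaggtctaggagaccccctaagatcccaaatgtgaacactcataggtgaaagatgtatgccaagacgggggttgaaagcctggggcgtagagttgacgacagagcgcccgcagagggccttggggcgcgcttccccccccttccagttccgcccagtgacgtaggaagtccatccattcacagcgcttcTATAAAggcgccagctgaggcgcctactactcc
Junb: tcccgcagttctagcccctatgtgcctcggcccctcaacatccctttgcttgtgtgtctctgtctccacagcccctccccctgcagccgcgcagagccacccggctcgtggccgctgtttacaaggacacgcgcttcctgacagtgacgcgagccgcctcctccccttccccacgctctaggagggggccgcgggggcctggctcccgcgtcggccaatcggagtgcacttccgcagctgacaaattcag
Atf3: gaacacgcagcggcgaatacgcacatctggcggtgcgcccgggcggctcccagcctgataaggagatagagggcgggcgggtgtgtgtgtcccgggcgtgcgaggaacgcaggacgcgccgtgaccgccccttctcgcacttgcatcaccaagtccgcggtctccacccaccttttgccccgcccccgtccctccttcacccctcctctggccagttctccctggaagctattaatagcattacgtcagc
Maff: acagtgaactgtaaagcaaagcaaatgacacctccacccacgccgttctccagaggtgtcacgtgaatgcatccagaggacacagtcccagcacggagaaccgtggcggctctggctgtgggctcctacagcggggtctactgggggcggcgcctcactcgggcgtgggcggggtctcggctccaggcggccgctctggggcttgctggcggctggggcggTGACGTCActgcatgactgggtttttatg
Jun: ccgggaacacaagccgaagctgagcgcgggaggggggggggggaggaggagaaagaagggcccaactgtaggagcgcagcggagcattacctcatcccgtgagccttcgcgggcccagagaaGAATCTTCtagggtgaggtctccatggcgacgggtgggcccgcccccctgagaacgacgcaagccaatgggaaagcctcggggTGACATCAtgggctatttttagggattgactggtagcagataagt
Both strands were searched for the AP-1 site TGACTCA, the cAMP response element TGACGTCA, the variant TGACATCA known from the Jun promoter, paired heat shock units (TTCNNGAA or GAANNTTC), triple units of the same kind, a Maf site that holds the AP-1 site within it and TATAAA. In Fos, TATAAA lay from -33 to -28, and 12.4% of 32851 promoters hold these letters. The second Maff start had TGACGTCA from -29 to -22, which 1.55% of promoters hold. Maff had 3 starts that could match, and 1.77% of genes hold these letters before at least 1 start. Jun had TGACATCA from -45 to -38, as did the third Maff start, and 2.93% of promoters hold it. Jun also had paired heat shock units from -128 to -121 and Fosl2 had them from -244 to -237, as do 12.8% of promoters. None of the searched letters lay in these windows of Fosb, Junb, Jund, Atf3 or the first Maff start. The AP-1 site, triple heat shock units and the Maf site were found in 4.46%, 0.466% and 0.134% of all promoters and in no window of these genes. These matches describe the letters and not a bound site.

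Fos encodes c-Fos, the partner through which Jun proteins form their most stable AP-1 dimers. Its levels were 11.976, 11.533 and 11.998 in heat-shocked and 9.50, 9.16 and 9.65 in untreated Q111 cells. In Q7 cells they were 11.21, 11.39 and 11.40 after heat shock and 8.45, 9.06 and 8.57 untreated. Every heat-shocked array was above every untreated array of either line, and no neighbouring groups overlapped in the order of heat-shocked Q111, heat-shocked Q7, untreated Q111 and untreated Q7 cells. The rise was 2.40 (SE 0.20, limma adjusted p = 9.98e-06) in Q111 cells and 2.64 (SE 0.20, adjusted p = 9.37e-06) in Q7 cells, which was the 80th largest rise of 18193 genes in Q7 cells. Its difference, Q111 minus Q7, was -0.25, with a 95% confidence interval from -0.87 to 0.38 and an adjusted p of 0.662. Fos kept both heat shock calls under all 22 alternatives run for each.

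Junb encodes JunB, an inducible Jun protein that is a weaker activator than c-Jun on single AP-1 sites. Its levels were 9.10, 8.94 and 7.67 in heat-shocked and 7.20, 7.53 and 7.34 in untreated Q111 cells. The Q7 levels were 8.942, 8.505 and 8.789 after heat shock and 7.29, 7.65 and 7.33 untreated. Heat-shocked arrays lay above untreated arrays in each line, but replicate 3 of heat-shocked Q111 cells was more than a unit below its companions and close to the untreated range. The rise was 1.21 (SE 0.31, limma adjusted p = 0.00819) in Q111 cells and 1.32 (SE 0.31, adjusted p = 0.00756) in Q7 cells. Without that replicate the rise in Q111 cells was 1.66, with an adjusted p of 5.82e-05. The difference of the rises was -0.11, with a 95% confidence interval from -1.07 to 0.86. With the actin covariate the Q7 rise was 1.69 and not called (adjusted p = 0.211).

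Atf3 encodes a member of the ATF/CREB family that is induced by many stresses and, as a dimer with itself, represses transcription. Its levels were 12.33, 12.27 and 12.17 in heat-shocked and 8.63, 9.06 and 9.14 in untreated Q111 cells. In Q7 cells they were 11.30, 11.42 and 11.55 after heat shock and 8.53, 8.72 and 9.90 untreated. Heat-shocked Q111 arrays were all above heat-shocked Q7 arrays, which were all above the overlapping untreated groups. The rise of 3.32 (SE 0.30, limma adjusted p = 1.44e-05) in Q111 cells was the 56th largest of all genes there. In Q7 cells the rise was 2.37 (SE 0.30, adjusted p = 0.000162), and untreated replicate 3 stood more than a unit above the other untreated Q7 arrays. The difference between the rises was 0.94 (95% confidence interval from 0.03 to 1.86) and was not called after adjustment (adjusted p = 0.223). With the actin covariate the Q7 rise of 2.24 was not called (adjusted p = 0.0955).

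Maff encodes a small Maf protein, which has a zipper but no activation domain and therefore activates genes only through its partners. Its levels were 11.26, 11.37 and 10.91 in heat-shocked and 8.43, 8.94 and 8.96 in untreated Q111 cells. Its Q7 levels were 9.77, 9.52 and 9.88 after heat shock and 8.779, 9.311 and 9.005 untreated. Heat-shocked Q111 arrays were all more than a unit above heat-shocked Q7 arrays, and the untreated groups overlapped. The rise was 2.40 (SE 0.20, limma adjusted p = 1.03e-05) in Q111 cells and 0.69 (SE 0.20, adjusted p = 0.0224) in Q7 cells. The rise in Q111 cells was larger by 1.71 (SE 0.28, 95% confidence interval from 1.08 to 2.33, adjusted p = 0.00849), or 3.27-fold. This was 1 of 9 genes called for the difference, which was called for 5.72% of all genes. It was called under all 22 alternatives, at 1.54 to 2.08 with adjusted p from 0.00121 to 0.0353. The rise in Q7 cells was less secure, since it was not called with the actin covariate (0.68, adjusted p = 0.487). It was also not called without replicate 1 or 3 of heat-shocked Q7 cells (0.67, adjusted p = 0.0584, and 0.61, adjusted p = 0.0864) or without replicate 1 or 3 of untreated Q7 cells (0.57, adjusted p = 0.0885, and 0.68, adjusted p = 0.0568).

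**Figure D2:**
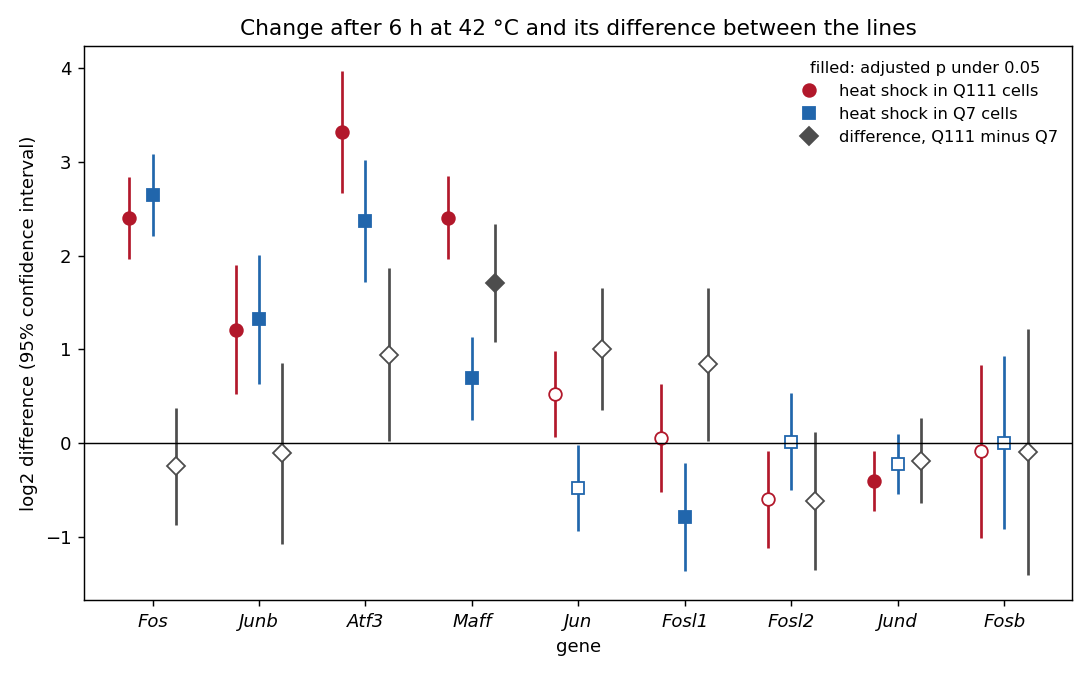
Log2 difference (vertical axis) with its 95% confidence interval for heat shock in Q111 cells (circles), heat shock in Q7 cells (squares) and the Q111 minus Q7 difference of these (diamonds) for each of the 9 genes, from 3 arrays in each group; filled symbols have an adjusted p under 0.05. Of the differences, that of Maff, 1.71, is the only filled one.

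Jun encodes c-Jun, the core AP-1 subunit, and was read by 2 probe sets that differed in size of change. On the brighter one levels were 10.81, 10.26 and 10.74 in heat-shocked and 10.34, 9.85 and 10.04 in untreated Q111 cells. In Q7 cells they were 10.05, 10.17 and 10.17 after heat shock and 10.96, 10.61 and 10.26 untreated. Temperatures overlapped in Q111 cells, whereas in Q7 cells every heat-shocked array was below every untreated one. Neither change was called, at 0.52 (SE 0.21, limma adjusted p = 0.0577) in Q111 cells and -0.48 (SE 0.21, adjusted p = 0.109) in Q7 cells. The rise in Q111 cells was called under 9 of 22 alternatives, among them equal array medians, at 1.25 (adjusted p = 0.00104). The fall in Q7 cells was called without replicate 3 of untreated Q7 cells (-0.65, adjusted p = 0.0437). Their difference was 1.004 (95% confidence interval from 0.35 to 1.65, adjusted p = 0.0736). On the dimmer probe set levels were 10.57, 10.05 and 10.21 in heat-shocked and 8.57, 9.13 and 8.74 in untreated Q111 cells, with no overlap. There Q7 cells had 9.58, 9.52 and 9.67 after heat shock and 9.41, 10.21 and 9.32 untreated, which overlapped. In the fit over every probe set, this dimmer one rose by 1.46 (SE 0.24, adjusted p = 0.000678) in Q111 cells and changed by -0.06 (SE 0.24, adjusted p = 0.895) in Q7 cells. The difference on this probe set was called, at 1.52 (SE 0.34, adjusted p = 0.0347). With the mean of all probe sets for each gene, the Jun difference was 1.26 (adjusted p = 0.0172). On the brighter probe set it was also called with equal array medians (1.38, adjusted p = 0.0403) and without replicate 2 of heat-shocked Q111 cells (1.18, adjusted p = 0.0364). In the order of groups on the brighter probe set, untreated Q7 and heat-shocked Q111 cells overlapped, as did heat-shocked Q7 and untreated Q111 cells below them.

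**Figure D3:**
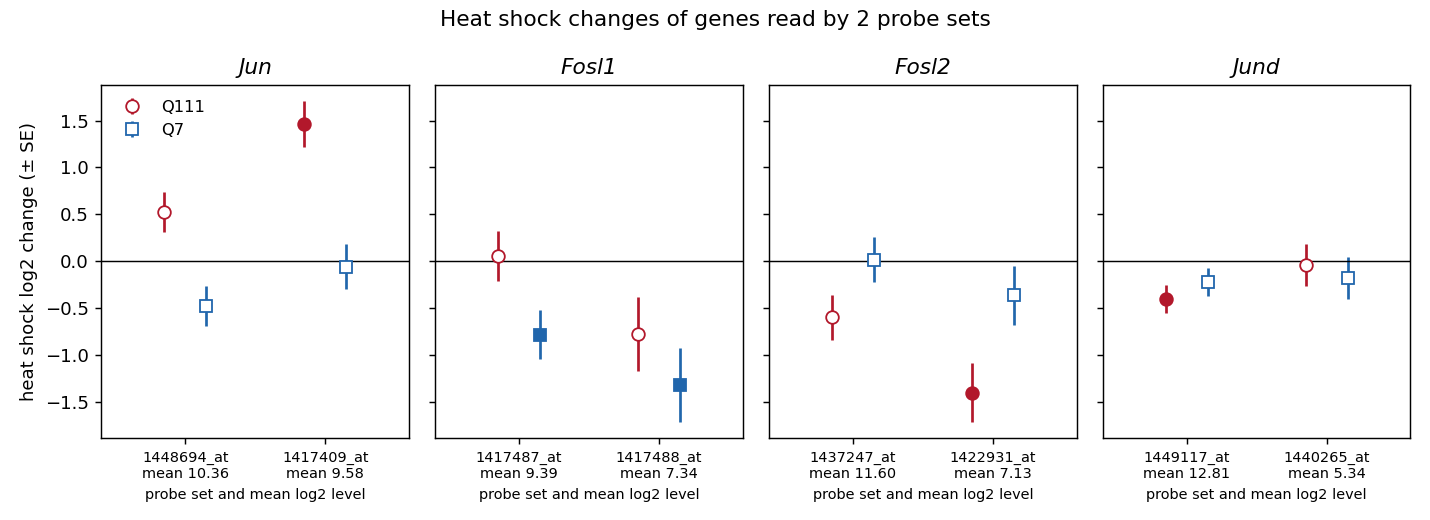
Heat shock log2 change ± SE (vertical axis) on each probe set of Jun, Fosl1, Fosl2 and Jund, in Q111 cells (circles) and Q7 cells (squares), with 3 arrays in each group; filled symbols have an adjusted p under 0.05 over all probe sets. The dimmer Jun probe set rose by 1.46 in Q111 cells, and the dimmer Fosl2 probe set fell by 1.40 there.

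Fosl1 encodes FRA1, a Fos protein without the activation domain of c-Fos that is often high in migrating and transformed cells. On its brighter probe set, levels were 9.58, 8.85 and 8.79 in heat-shocked and 8.716, 9.332 and 8.999 in untreated Q111 cells. Levels in Q7 cells were 9.40, 9.25 and 9.41 after heat shock and 10.22, 10.52 and 9.66 untreated. Untreated Q7 arrays were above all other arrays, and the other groups overlapped their neighbours. The fall in Q7 cells was 1.72-fold (log2 change -0.78, SE 0.26, limma adjusted p = 0.0424), and it was not called with equal array medians (-0.43, adjusted p = 0.143) or with the actin covariate (-0.67, adjusted p = 0.629). Leaving out replicate 3 of untreated Q111 cells, any heat-shocked Q7 array, or replicate 1 or 2 of untreated Q7 cells also ended this call, with values between -1.02 and -0.59 over the fits that leave out 1 array. The dimmer probe set fell by 1.32 in Q7 cells (SE 0.39, adjusted p over all probe sets = 0.0261). The change in Q111 cells was 0.06 (SE 0.26, adjusted p = 0.871) on the brighter probe set and -0.77 (SE 0.39, adjusted p = 0.132) on the dimmer one. With equal array medians the brighter probe set rose by 0.78 in Q111 cells (adjusted p = 0.00808). The Q111 minus Q7 difference was 0.84 (95% confidence interval from 0.03 to 1.65, adjusted p = 0.223), and it was called with equal medians at 1.21 (adjusted p = 0.0429).

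Fosl2 encodes FRA2, a later-induced Fos protein. On the brighter of its probe sets, levels were 11.58, 10.92 and 11.64 in heat-shocked and 12.28, 11.82 and 11.83 in untreated Q111 cells. Its levels in Q7 cells were 11.55, 11.57 and 11.48 after heat shock and 11.86, 11.59 and 11.10 untreated. Untreated Q111 arrays were above heat-shocked Q111 arrays, while the Q7 groups overlapped. The change was -0.60 (SE 0.24, limma adjusted p = 0.0552) in Q111 cells and 0.02 (SE 0.24, adjusted p = 0.969) in Q7 cells. In Q111 cells the fall was called under 8 of 22 alternatives, among them the mean of its probe sets (adjusted p = 0.00292) and the fit without replicate 3 of heat-shocked Q111 cells (-0.73, adjusted p = 0.037), but it turned to 0.13 with equal array medians. The dimmer probe set had 6.51, 6.23 and 5.61 in heat-shocked and 7.62, 7.77 and 7.16 in untreated Q111 cells, against 7.84, 6.75 and 7.23 in heat-shocked and 8.04, 7.39 and 7.47 in untreated Q7 cells. It fell by 1.40 in Q111 cells (SE 0.32, adjusted p = 0.00424) and changed by -0.36 in Q7 cells (SE 0.32, adjusted p = 0.448).

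Jund encodes JunD, the Jun protein that resting cells keep in steady supply. On its brighter probe set, levels were 12.79, 12.56 and 12.71 in heat-shocked and 13.09, 13.34 and 12.83 in untreated Q111 cells, and 12.65, 12.63 and 12.61 in heat-shocked and 12.93, 12.87 and 12.75 in untreated Q7 cells. Heat-shocked arrays were below untreated ones in each line, although the nearest arrays of Q111 cells almost touched, and neighbouring groups in the order of means overlapped throughout. The fall in Q111 cells was 1.32-fold (log2 change -0.40, SE 0.15, limma adjusted p = 0.0405), and it turned to 0.33 (adjusted p = 0.115) with equal array medians. The call was also lost without replicate 2 or 3 of heat-shocked Q111 cells, replicate 1 or 2 of untreated Q111 cells, any heat-shocked Q7 array or replicate 2 of untreated Q7 cells, at values between -0.53 and -0.27 over the fits that leave out 1 array. The change in Q7 cells was -0.22 (SE 0.15, adjusted p = 0.302), turning to 0.14 with equal medians. The dimmer probe set lay between 4.94 and 5.76 on all arrays, near the background bound.

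Fosb encodes FosB, whose truncated form ΔFosB accumulates in the striatum after repeated stimulation. Its single probe set read between 4.91 and 6.80, close to the background bound, and all 4 groups overlapped. Heat shock changed it by -0.09 in Q111 cells (95% confidence interval from -1.01 to 0.84) and by 0.01 in Q7 cells (from -0.92 to 0.93). Changes in either direction within these intervals could not be detected at this signal.

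Between the lines after heat shock, Maff was 1.46 higher in Q111 cells (SE 0.20, limma adjusted p = 0.000424). It was called under all 23 alternatives, at 1.36 to 1.83. It was 1 of 9 genes called, against 6.58% of all genes called higher and 15.5% lower. Arrays of the heat-shocked lines did not overlap for 4 of the 9 genes, against 37.2% of all genes. Beside Maff these were Atf3, at 0.84 (SE 0.30, adjusted p = 0.0656), Fos, at 0.50 (SE 0.20, adjusted p = 0.099), and Jun, at 0.47 (SE 0.21, adjusted p = 0.135), each higher on all Q111 arrays. Array medians differed by 0.38 in the opposite direction between these groups. With equal medians Atf3 was called at 1.21 (adjusted p = 0.0129), Fos at 0.88 (adjusted p = 0.0169) and Jun at 0.85 (adjusted p = 0.0252). The dimmer Fosl2 probe set was lower in Q111 cells, at -1.16 (SE 0.32, adjusted p = 0.0251).

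In untreated cells, Fos and Fosl1 differed between the lines in opposite directions. Fos averaged 9.44 ± 0.25 in Q111 cells and 8.69 ± 0.33 in Q7 cells (SD, n = 3 each), and was 0.75 higher in Q111 cells (SE 0.20, limma adjusted p = 0.0334). Fosl1 averaged 9.02 ± 0.31 in Q111 cells and 10.13 ± 0.44 in Q7 cells (SD, n = 3 each), a 2.17-fold lower level in Q111 cells (log2 difference -1.12, SE 0.26, adjusted p = 0.0163). These were 2 of 9 genes, against 5.11% of all genes called higher and 5.68% lower. Their arrays did not overlap, which held for 27.1% of all genes. Untreated arrays of the lines with the same replicate number varied together, and with the replicate number as a block Fos was no longer called (adjusted p = 0.0583), while Fosl1 was (adjusted p = 0.024). The Fos call was also lost without replicate 1 or 3 of either untreated group or replicate 3 of heat-shocked Q7 cells, at values between 0.62 and 0.93 over the fits that leave out 1 array. The Fosl1 call was lost without replicate 1 or 3 of untreated Q111 cells or replicate 1 or 2 of untreated Q7 cells, at values between -1.36 and -0.93 over such fits. The dimmer Fosl1 probe set differed by -1.01 (SE 0.39, adjusted p = 0.179), also without overlap. The dimmer Jun probe set was at -0.84 (SE 0.24, adjusted p = 0.0597) and the brighter at -0.53 (SE 0.21, adjusted p = 0.158). With the mean of its probe sets Jun was called lower in untreated Q111 cells (adjusted p = 0.0245).

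Among 21 dimer partners and related zipper factors, 6 rose and 3 fell in Q111 cells, with a median change of 0.27. In Q7 cells 6 rose and 1 fell, with a median of 0.45. These were 42.9% of the list in Q111 cells and 33.3% in Q7 cells, against 48.1% and 30.4% of all genes. With equal array medians, which raise genes of any kind, 15 rose and 2 fell in Q111 cells, with a median of 0.99. In Q7 cells 11 rose and 1 fell, with a median of 0.80. Quantile normalization run again gave 6 rises and 4 falls in Q111 cells, and 7 rises and 1 fall in Q7 cells. Mafk, another small Maf, rose by 2.00 (SE 0.17, limma adjusted p = 9.21e-06) in Q111 cells and by 1.18 (SE 0.17, adjusted p = 0.000331) in Q7 cells, where Maff rose by 2.40 and 0.69. Cebpb, a zipper factor of inflammation and differentiation, rose by 1.96 in Q111 cells and by 1.39 in Q7 cells, although its dimmer probe set gave 0.18 and 0.15. Atf5, a stress-related ATF factor, rose by 1.42 in Q7 cells, and its change of 0.43 in Q111 cells was not called (adjusted p = 0.223). Bach2, a repressor that pairs with small Mafs, fell by 1.96 in Q111 cells and by 1.70 in Q7 cells, while 1 of its other probe sets gave 0.34 and -0.22. Atf7, a relative of ATF2, fell by 2.60 in Q111 cells on its brighter probe set and rose by 1.75 on a dimmer one. None of the 21 was called for the difference between the lines by limma, where 5 had an unadjusted p under 0.05. With equal medians 2 were, Mafk at 1.20 (adjusted p = 0.013) and Cebpb at 0.94 (adjusted p = 0.0307). After quantile normalization was run again neither was called, at 0.89 (adjusted p = 0.0548) for Mafk and 0.69 (adjusted p = 0.0571) for Cebpb.

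Of 26 MAP kinase and serum response factor genes upstream of Fos and Jun, 2 rose and 16 fell in Q111 cells, with a median change of -0.95. In Q7 cells 3 rose and 9 fell, with a median of -0.17. Called in this list were 69.2% in Q111 cells and 46.2% in Q7 cells, against 48.1% and 30.4% of all genes. With equal array medians, which raise genes of any kind, 8 rose and 11 fell in Q111 cells, and 6 rose and 7 fell in Q7 cells. Quantile normalization run again gave 2 rises and 13 falls in Q111 cells, and 3 rises and 8 falls in Q7 cells. Mrtfa, a coactivator of serum response factor, fell by 3.59 (SE 0.31, adjusted p = 1.24e-05) in Q111 cells and by 1.71 (SE 0.31, adjusted p = 0.00171) in Q7 cells. Its Q111 minus Q7 difference was -1.88 (SE 0.44, adjusted p = 0.0323). Rps6ka5, the kinase MSK1, which phosphorylates CREB and histone H3, had a difference of -2.02 (SE 0.30, adjusted p = 0.00563), with 6.37 in heat-shocked and 8.504 in untreated Q111 cells, and 8.44 in heat-shocked and 8.55 in untreated Q7 cells. Map2k4, which activates the JNK kinases of Jun protein, was the third gene called for the difference, at -1.29 (SE 0.25, adjusted p = 0.0145), and is named after its value was seen. Map2k5, the activator of ERK5, fell by 2.73 in Q111 cells and by 2.81 in Q7 cells. The kinase of p38, Map2k3, rose by 0.63 in Q111 cells, and its change of 0.44 in Q7 cells was not called (adjusted p = 0.0908). Mapkapk3, a kinase activated by p38, rose by 0.72 in Q111 cells and by 1.61 in Q7 cells. Map3k20, a kinase of the ribosome stress response, rose by 1.04 in Q7 cells on its brightest probe set, while the others gave -1.28, 2.34 and 0.65.

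Among 16 regulators of AP-1 and of its transcripts, most of them negative, 3 rose and 2 fell in Q111 cells. In Q7 cells 2 rose and 2 fell. The share called was 31.2% in Q111 cells and 25% in Q7 cells, below the 48.1% and 30.4% of all genes. With equal array medians, which raise genes of any kind, 8 rose in Q111 cells and 5 in Q7 cells, and 0 fell in either line. Quantile normalization run again gave 3 rises and 2 falls in Q111 cells, and 3 rises and 1 fall in Q7 cells. Zfp36, which directs short-lived transcripts such as Fos to decay, rose by 0.86 (SE 0.24, limma adjusted p = 0.0117) in Q111 cells and by 1.39 (SE 0.24, adjusted p = 0.00118) in Q7 cells. Dusp1, a phosphatase of MAP kinases, rose by 0.62 in Q111 cells and by 1.17 in Q7 cells. Dusp8, a phosphatase of JNK and p38, rose by 1.35 in Q111 cells, with 0.34 and 0.48 on its other probe sets, while its change in Q7 cells was -0.07. Itch, a ubiquitin ligase of Jun proteins, fell by 0.79 in Q111 cells and by 0.44 in Q7 cells, but with equal array medians it changed by -0.07 and -0.09, and its 3 dimmer probe sets gave positive changes in both lines. Hnrnpd, a binder of AU-rich transcripts, fell by 0.74 in Q111 cells and by 0.85 in Q7 cells, with -0.01 and -0.49 at equal medians. None of the 16 was called for the difference by limma, where 3 had an unadjusted p under 0.05. Dusp8 was called with equal medians (1.79, adjusted p = 0.0277) and after quantile normalization was run again (1.66, adjusted p = 0.0456).

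Of 29 genes described as AP-1 targets, 9 rose and 6 fell in Q111 cells, with a median change of 0.15. In Q7 cells 5 rose and 12 fell, with a median of -0.20. Calls covered 51.7% of this list in Q111 cells and 58.6% in Q7 cells, against 48.1% and 30.4% of all genes. With equal array medians, which raise genes of any kind, 20 rose and 2 fell in Q111 cells, and 10 rose and 10 fell in Q7 cells. Quantile normalization run again gave 8 rises and 5 falls in Q111 cells, and 6 rises and 11 falls in Q7 cells. Plau, the protease urokinase, rose by 2.09 (SE 0.31, limma adjusted p = 0.000327) in Q111 cells and by 1.30 (SE 0.31, adjusted p = 0.00861) in Q7 cells. Cdkn1a, the cell cycle inhibitor p21, rose by 1.59 in Q111 cells and by 1.21 in Q7 cells. In Q111 cells the largest falls in the list were those of Mmp14, a membrane metalloprotease, by 2.40, and Tgfb1, a growth factor, by 2.32. In Q7 cells they were those of Mmp3, the protease stromelysin, by 2.01, and Plaur, the urokinase receptor, by 1.84. For the difference of heat shock effects 6 of the 29 were called higher in Q111 cells and 1 lower, with a median of 0.45. Over all genes 1.21% were called higher and 4.51% lower. The list was chosen with earlier results of these data known, so these shares are no test of AP-1 targets. With equal medians 10 were higher and 0 lower, and with quantile normalization run again 4 were higher and 1 lower. Mmp3 differed most, by 2.79 (SE 0.54, adjusted p = 0.0158), with 6.22 in heat-shocked and 5.45 in untreated Q111 cells and 6.46 in heat-shocked and 8.47 in untreated Q7 cells. Mmp10, a related protease, had a difference of 1.56, but its levels of 4.47 and 3.80 in heat-shocked and untreated Q111 cells were within background range. Bcl2l11, the cell death gene Bim, differed by -1.45 (SE 0.32, adjusted p = 0.0264), with a rise of 1.08 in Q7 cells and a change of -0.37 that was not called in Q111 cells. Ccl2, Ereg, Plaur and Ptgs2, named after their values were seen, were the others called higher for the difference, at 1.12, 1.02, 1.02 and 0.86. With the actin covariate none of the 29 was called higher for the difference and 1 was called lower. In untreated cells none of the 29 was higher and 8 were lower in Q111 cells, against 5.11% of all genes called higher and 5.68% lower.

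**Figure D4:**
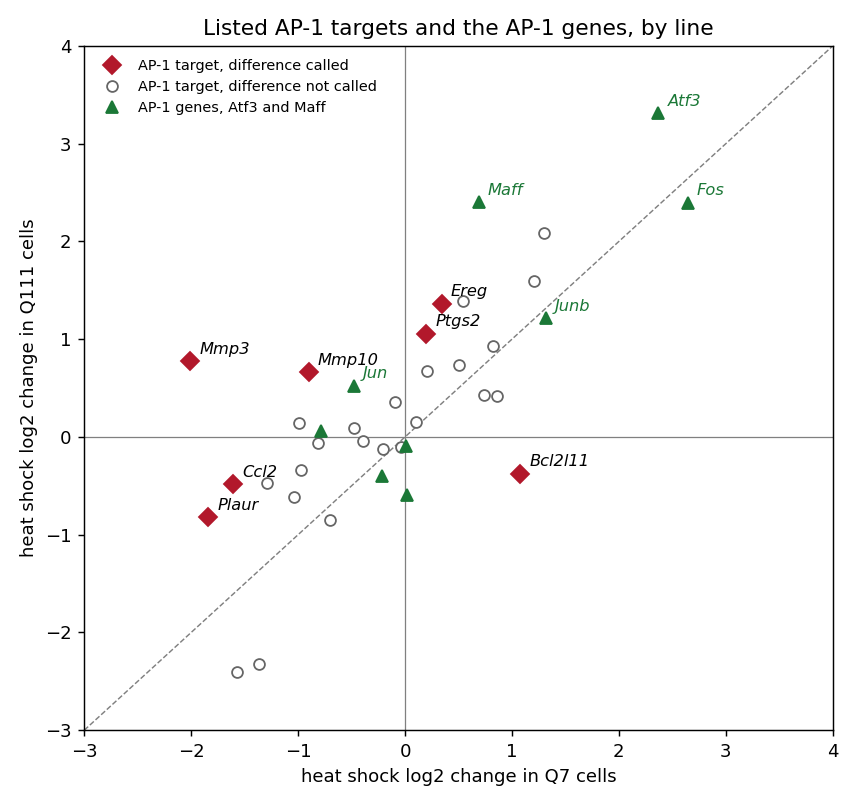
Heat shock log2 change in Q111 cells (vertical axis) against that in Q7 cells (horizontal axis) for the 29 listed AP-1 targets and the 9 genes described here, from 3 arrays in each group; diamonds are targets whose difference between the lines had an adjusted p under 0.05, and the dashed line marks equal change. Maff, at 2.40 and 0.69, and Mmp3, at 0.78 and -2.01, lie well above that line.

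The genes whose levels followed each of the 9 most closely were ranked by Pearson's r over the 12 arrays among 12501 candidates. These values describe arrays that share the 4 groups and their shifts in array median. Closest to Maff were Dusp2 (r = 0.988), another MAP kinase phosphatase, Tra2b (r = 0.968) and Mep1a (r = 0.963). Ap3s1 (r = 0.986), Pole4 (r = 0.985) and the HSP70 gene Hspa1b (r = 0.979) were closest to Fos. For Atf3 these were Tomm7 (r = 0.985), Rpl12 (r = 0.984) and Map1lc3b (r = 0.983). Jun stood further from its nearest genes, the growth factor response genes Spry2 (r = 0.866) and Myc (r = 0.817) and the neuronal growth gene Gap43 (r = 0.798). For Junb the leading gene was Trim69 (r = 0.972), for Jund Atxn1l (r = 0.966), for Fosl1 Csf1 (r = 0.923) and for Fosl2 Ehd2 (r = 0.953). For Fosb it was Phlpp2 (r = 0.921), followed by Srf (r = 0.869), the gene of serum response factor. Fosb itself read close to the background bound, with all groups overlapping. Heat shock changed Srf by -0.10 in Q111 cells (limma adjusted p = 0.789) and by 0.17 in Q7 cells (adjusted p = 0.713). A link between these genes was not tested.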

How the data were processed

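RNA of the 12 samples was hybridised to a mouse expression array. The authors deposited a log2 level for each probe set and sample, made with RMA per the submitters' processing notes. RMA corrects background, normalizes arrays and summarizes the probes of a set. Which software and probe definition RMA used is not given in the sources used here. Scanner files were not used here, and precision is limited by the number of arrays.

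Groups were taken from the labels. Of 45101 probe sets, 34945 named 1 gene in the platform annotation, 932 named several and 9160 none, beside 64 controls, and only the first were used. Symbols were updated by gene identifier for 34741 of them. The probe set with the highest mean stood for each of 18193 genes, and all 13 probe sets of the 9 genes were also fitted with every other probe set. limma 3.58.1 in R 4.3.3 took all arrays into a single fit with a mean for each of 4 groups, which left 8 residual degrees of freedom, and gave 5 two-sided comparisons. P-values were adjusted over all genes by the Benjamini-Hochberg method, and a gene was called where its adjusted p was under 0.05. The fit was tested on simulated data. The highest level of 27 probe sets for bacterial RNA not added, 5.14, served as the background bound. A listed or marker gene counted as above it if its mean was above it in at least 1 group.

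The 9 genes, the gene lists and the alternatives were chosen with earlier results of these data known. Named beside the 9 genes were, per list and for heat shock in either line and its difference, the called genes with the 2 largest changes in each direction, and the 3 genes of highest correlation with each of the 9, of which some are given. Of the further marker lists, 7 of 9 neuron, 7 of 8 progenitor, 5 of 7 astrocyte, 2 of 6 oligodendrocyte, 4 of 7 microglia and macrophage, 1 of 6 endothelium and 6 of 8 fibroblast genes were above the bound. Over all genes this held for 13353 of 18193. Alternatives were other probe set rules, scalings, a variance trend, fewer groups, a replicate block, an actin covariate, a stricter threshold and leaving out each array. Blocks within a temperature were added after seeing the data.

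Replicate numbers come from the titles. Deviations of same-numbered untreated Q111 and Q7 arrays from their group means correlated at 0.516, 0.402 and 0.577 over all genes. These groups may therefore be paired, and no other groups compared were taken to be. The main fit did not pair them, and the replicate block was run only as an alternative. No 2 arrays were copies. Promoters came from RefSeq in build GRCm38.p6 and were searched with Python 3.11.15. Protein sequences were not used here.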

Additional observations from a re-analysis of the deposited data

Results flagged for a closer look

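In the main fit, Maff is the only gene among the 9 whose heat shock effect differed between the lines by the test of the difference itself. The Maff effect was larger in Q111 cells by 1.71 on the log2 scale (limma adjusted p = 0.00849). Jun was also called for the difference on its dimmer probe set, and Jun and Fosl1 with equal array medians. All 3 heat-shocked Q111 arrays lay above all 3 heat-shocked Q7 arrays, and the untreated groups overlapped. Its single probe set on this array gives no second reading of the gene.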

How the results depend on the processing

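Of the single-gene values under alternatives, 927 kept their direction where called and their side of the threshold, 44 lost a call, 36 gained one, and 1 turned round. That one was the fall of Jund in Q111 cells, which became 0.33 (limma adjusted p = 0.115) with equal array medians. That setting adds the gap between array medians to every change. All counts below are limma calls. Calls among the 9 genes were 5 for heat shock in Q111 cells and stayed between 4 and 7 when 1 array was left out. For heat shock in Q7 cells they were 5, but 1 with the actin covariate, 3 at an adjusted p under 0.01 and 3 to 5 without 1 array. For the difference they were 1, but 2 with the mean of probe sets, 3 with equal medians and 1 to 2 without 1 array; without replicate 2 of heat-shocked Q111 cells Jun was also called (1.18, adjusted p = 0.0364). After heat shock the lines differed in 1 gene, but in 3 with the mean of probe sets, in 4 with equal medians, in 2 with the variance trend, only the groups compared or either replicate block, and in 1 to 2 without 1 array. Untreated lines differed in 2 genes, and Jun was a further one with the mean of probe sets (adjusted p = 0.0245). They differed in 1 with equal medians, only the groups compared, the replicate block or the block within a temperature. They differed in 0 at an adjusted p under 0.01 and in 0 to 2 without 1 array. At that threshold none of the 9 passed by limma, while 3 of them, Fos, Fosl1 and Jun, had an unadjusted p under 0.05. Heat-shocked arrays and untreated arrays of a line share only a number, and with the replicate block the counts were 7 in Q111 cells and 5 in Q7 cells.

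Over all genes, the calls for heat shock in Q111 cells were 8758, and 13331 with equal medians, 4381 with the actin covariate, 5719 at the stricter threshold and 7205 to 8572 without 1 array. In Q7 cells they were 5525, and 436 with the actin covariate, 3498 at the stricter threshold and 4060 to 6598 without 1 array. For the difference they were 1041, and 407 with that covariate, 224 at that threshold and 379 to 1238 without 1 array. After heat shock they were 4018, with 6291 at equal medians, 2674 in the groups compared, 2239 at the stricter threshold and 2594 to 4152 without 1 array. Untreated they were 1962, with 1255 at the stricter threshold and 1470 to 2401 without 1 array. Equal medians moved the share of calls that were higher to 82.5% against 41.5% in Q111 cells, to 70.1% against 40.4% in Q7 cells, to 62.1% against 21.2% for the difference and to 72.6% against 29.8% after heat shock.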
